A study of Mus musculus with 15 samples.

Results

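Oxidative phosphorylation is carried out in the inner mitochondrial membrane by 5 protein complexes, and the genes for their subunits were followed here through 5 sorted populations of mouse bone marrow. Genes were taken by symbol alone: names that start with Nduf followed by a, b, c, s or v and a digit, Uqcr, Cox4 to Cox8, Atp5, the genes Sdha to Sdhd and Cyc1, and the protein genes of mitochondrial DNA. The rule found 95 of the 14801 genes in the deposited table, 82 encoded in the nucleus and 13 encoded in mitochondrial DNA. By the complex their names give, 36 nuclear genes belong to complex I, 4 to complex II, 10 to complex III, 15 to complex IV and 17 to complex V. The mitochondrial genes divide into 7 of complex I, 1 of complex III, 3 of complex IV and 2 of complex V. The nuclear set includes the pseudogenes Atp5c1-ps and Uqcrh-ps1, which the symbol rule does not exclude.

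The populations were sorted by flow cytometry from marrow of healthy mice and sequenced with an mRNA library kit, 3 libraries each and 15 in all. They are ProNeut_Neutrophil (ProNeut here), PreNeut_Neutrophil (PreNeut), Neutrophil, CD115plusGMP (granulocyte-monocyte progenitors that carry CD115, the receptor for colony-stimulating factor 1) and CMP (common myeloid progenitors). The labels give no strain, age, genotype or animal for any group, nor the gates that separate ProNeut from PreNeut. P-values therefore measure the spread between libraries, which may be technical.

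Complex I (NADH dehydrogenase) and complex II (succinate dehydrogenase) feed electrons into the chain, complex III passes them to cytochrome c, and complex IV (cytochrome c oxidase) passes them to oxygen. The proton gradient so formed drives complex V, the ATP synthase. Mitochondrial DNA encodes core membrane subunits of every complex except complex II, and its genes are copied as long joint transcripts from both strands and then cut apart. All other subunits are made from nuclear genes and imported, so a working complex needs both genomes. Mature neutrophils are known for few mitochondria and for drawing their ATP mainly from glycolysis.

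Expression is given as log2 CPM, the base 2 logarithm of counts per the scaled library size, and whole reads could be recovered from it. The libraries form a first set of 9 (Neutrophil, CD115plusGMP and CMP, 810794 to 1444403 reads) and a second set of 6 (ProNeut and PreNeut, 7493694 to 68171606 reads), and PreNeut replicate 3 is the deepest. Depth and library set follow the groups, so the sets were not compared. In the first set the median nuclear subunit gene had 0 to 14 reads per library, and in the second set 285.5 to 3214.5. ND6, the only mitochondrial protein gene on the minus strand, held 69.1% to 93.3% of all mitochondrial reads in libraries of the first set, and 0.154% to 0.230% in those of the second. Of 18 nuclear subunit genes with an opposite-strand partner in the table, the partner held more reads than the subunit gene for 3 in ProNeut, 4 in PreNeut, 9 in Neutrophil, 9 in CD115plusGMP and 10 in CMP. The strand setting of the counting is not given in any source used, so reads of a gene and of the opposite strand cannot be told apart, and a value is that of a locus. In bulk RNA, fewer cells of a type and less RNA per cell cannot be told apart either.

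The mitochondrial gene sequences bear on every mitochondrial value, because part of them is repeated on chromosome 1. Of the 13 genes, 7 have their closest annotated copy in pseudogenes on the minus strand of chr1:24611535-24616197 (GRCm38, GENCODE M21), a stretch of 4663 bases. COX2 (cytochrome c oxidase subunit 2, chrM:7013-7696) matched its copy Gm28661 over all 681 bases aligned, and ATP6 (the ATP synthase proton channel subunit, chrM:7927-8607) matched Gm10925 over all 678. COX1, the catalytic subunit of complex IV at chrM:5328-6872, matches the copy Gm29216 from its base 1054 onwards, with 6 differences that all lie near the start of the copy. The first 80 bases of that alignment (chrM:6381-6460 and chr1:24616118-24616197) and the first 80 bases of COX2 (chrM:7013-7092 and chr1:24615486-24615565) are given 5′ to 3′, with differing bases in capitals.
COX1: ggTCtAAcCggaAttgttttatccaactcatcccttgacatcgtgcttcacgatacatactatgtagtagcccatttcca
Gm29216: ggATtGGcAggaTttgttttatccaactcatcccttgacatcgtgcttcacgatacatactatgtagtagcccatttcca
COX2: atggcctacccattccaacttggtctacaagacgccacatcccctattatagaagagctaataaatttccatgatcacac
Gm28661: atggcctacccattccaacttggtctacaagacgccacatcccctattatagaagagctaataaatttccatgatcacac
After its first 13 bases the COX1 stretch is the same letter for letter as its copy, and the COX2 stretch has no difference at all.

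Every 50-base window of each gene was searched in the transcripts of all other annotated genes. COX2 shared 100% of its windows, COX3 99.9%, ATP6 99.5%, ND4L 98.8% and ND3 98%. ND4 shared 62.2%, COX1 51.1%, ND2 8.19% and ND5 7.61%, and ND1, CYTB, ND6 and ATP8 shared none. The genes with nearly all windows shared had the lowest levels in the second set, where levels are given as RPKM, reads scaled to transcript length in kilobases and to the library's recovered total. COX2 stood at 9.07 ± 1.34 in ProNeut and 21.6 ± 4.95 in PreNeut (SD, n = 3 each), while COX1 stood at 3130 ± 449 in ProNeut and 5550 ± 369 in PreNeut. ND3 stood at 3.13 ± 0.944 in ProNeut and 3.81 ± 1.12 in PreNeut, and CYTB, the cytochrome b of complex III, at 1840 ± 160 in ProNeut and 3600 ± 86.3 in PreNeut. How the counting treated reads that fit several places is not given in the sources used here, so the levels of COX2, COX3, ATP6, ND3 and ND4L are uncertain and are not compared with those of other genes below.

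ND4, shared over its first 876 bases, stood at 290 ± 11.8 in ProNeut and 543 ± 29.4 in PreNeut per kilobase of transcript. Per 1000 windows found in no other annotated transcript, a scale added after the data were seen, ND4 had 796 ± 32.4 in ProNeut and 1490 ± 80.8 in PreNeut, beside 780 ± 111 in ProNeut and 1690 ± 136 in PreNeut for ND5. On that scale the other complex I subunits of this strand had 1220 ± 144 (ND1) and 478 ± 84.4 (ND2) in ProNeut, and 2840 ± 24.3 (ND1) and 1030 ± 55.8 (ND2) in PreNeut. ND4 thus lay below ND1, ND2 and ND5 per kilobase of transcript, and between ND2 and ND1 per unshared window. COX1, with 51.1% of windows shared, had 6620 ± 949 in ProNeut and 11700 ± 781 in PreNeut per 1000 unshared windows. CYTB had 1920 ± 167 in ProNeut and 3760 ± 90.2 in PreNeut, so COX1 lay above CYTB on both scales. ATP8, whose product is a small ATP synthase subunit, shared no window yet had only 16.8 ± 1.65 in ProNeut and 36.2 ± 6.91 in PreNeut per kilobase. Its gene (chrM:7766-7969) follows COX2 and overlaps the start of ATP6, and these shared bases, fewer than a window holds, are repeated in the ATP6 copy. The 233 bases between the chromosome 1 copies of COX2 and ATP6 hold no annotated gene; whether they repeat the rest of ATP8 was not tested.

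**Figure D1:**
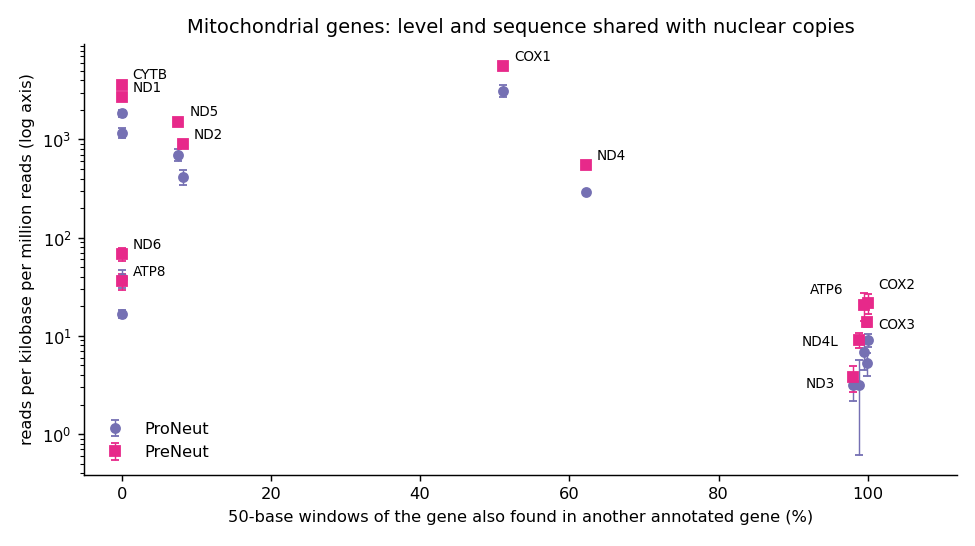
Level of each mitochondrial gene (vertical axis, RPKM from recovered reads, log scale, mean ± SD of 3 libraries) against the percentage of its 50-base windows found in another annotated gene. Circles are ProNeut and squares PreNeut; the 5 genes at 98% or more lie below every gene that shares less, and ND6 and ATP8 lie low without shared windows.

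Between ProNeut and PreNeut, both of the second set, the mitochondrial genes were lower in ProNeut by more than the nuclear genes. The 13 mitochondrial genes held 0.878%, 1.06% and 1.12% of reads in ProNeut libraries, against 1.95%, 1.91% and 2.09% in PreNeut libraries. The 82 nuclear genes held 0.431%, 0.478% and 0.481% in ProNeut, against 0.535%, 0.499% and 0.543% in PreNeut. Both shares were lower in every ProNeut library than in any PreNeut library. The ratio of means was 0.515 for mitochondrial and 0.882 for nuclear genes. Scaled to plain library totals, as shares are, the median log2 difference was -1.12 for mitochondrial and -0.17 for nuclear genes. Over all genes tested it was -0.11, so the nuclear median lay close to that of all genes. Mitochondrial reads per nuclear subunit read, a measure added after the data were seen that does not use the library size, were 2.04, 2.21 and 2.34 in ProNeut and 3.64, 3.83 and 3.85 in PreNeut. The exact permutation test gave p = 0.1 for each of these differences, the smallest p that 3 against 3 libraries allow.

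**Figure D2:**
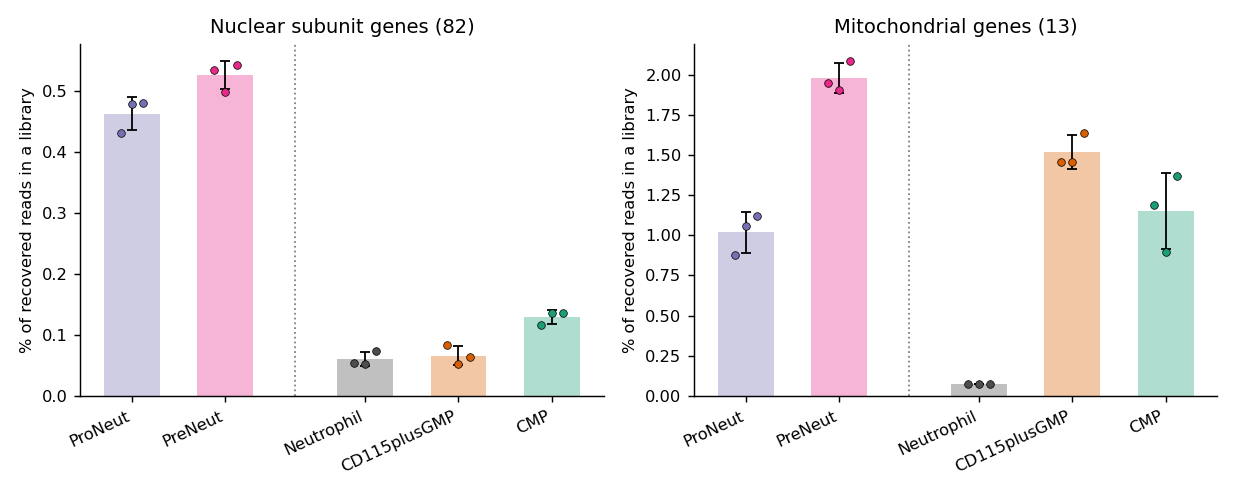
Percentage of recovered reads on the 82 nuclear (left) and the 13 mitochondrial (right) genes; bars are group means, whiskers SD and points the 3 libraries, and the dotted line separates the 2 library sets. In ProNeut the mitochondrial share averaged 1.02% against 1.98% in PreNeut, and in Neutrophil it averaged 0.0734%, below all libraries of CD115plusGMP and CMP.

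Gene by gene, 11 of the 13 mitochondrial genes passed the filter on low values (at least 3 of the 6 libraries over a log2 CPM of 1); ND3 and ND4L did not. All 11 were lower in ProNeut at an adjusted p under 0.05 in limma, where 19.4% of all 8906 genes tested were. Of these, 6 were also lower by at least 1 log2 unit and so called, against 3.93% of all genes called lower. The median difference of the 11 was -1.03 log2 units, beside -0.02 over all genes tested. The 11 genes are not independent of each other, since 10 of them lie on 1 strand and are transcribed together.

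Among complex I genes, ND1 had a log2 CPM of 8.90, 9.14 and 9.25 in ProNeut libraries, against 10.28, 10.16 and 10.29 in PreNeut libraries. The groups did not overlap, and the difference was -1.14 ± 0.09 (SE; adjusted p = 4.6e-10 in limma). ND5 was lower by a similar amount, with 9.08, 9.30 and 9.53 in ProNeut against 10.31, 10.21 and 10.52 in PreNeut (difference -1.04 ± 0.10). ND2 and ND4 differed by -1.03 ± 0.10 and -0.82 ± 0.08, and only ND2 of this pair reached 1 log2 unit. ND6, annotated on the other strand, had 2.99, 3.54 and 3.38 in ProNeut against 3.84, 3.98 and 4.30 in PreNeut, a difference of -0.74 ± 0.16 (adjusted p = 0.00096).

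CYTB, the mitochondrial gene of complex III, had a log2 CPM of 9.89, 10 and 10.19 in ProNeut against 10.95, 10.80 and 10.99 in PreNeut, a difference of -0.89 ± 0.10. COX1, the most abundant of all 95 genes per kilobase in these libraries, had 11.00, 11.21 and 11.47 in ProNeut against 11.96, 11.83 and 12.12 in PreNeut, a difference of -0.75 ± 0.12. Neither overlapped between the groups, and both passed the adjusted p without reaching 1 log2 unit. The genes with nearly complete copies differed by -1.14 ± 0.25 (COX2), -1.30 ± 0.29 (COX3) and -1.51 ± 0.30 (ATP6), all called, from 131 to 197 reads per gene over the ProNeut libraries and 1020 to 1579 over the PreNeut libraries. ATP8, with 108 reads in ProNeut and 739 in PreNeut, differed by -0.99 ± 0.33 (adjusted p = 0.022) and no longer passed without any of 4 libraries in turn: PreNeut replicate 2 or 3, or ProNeut replicate 1 or 2 (differences -0.86 to -0.97). Without PreNeut replicate 3 the count of called mitochondrial genes was 3, and leaving out each library in turn gave medians from -1.12 to -0.92. When all 15 libraries shared 1 estimate of the spread, no mitochondrial gene was called, and CYTB (adjusted p = 0.0111) and COX1 (adjusted p = 0.0365) alone passed.

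The nuclear genes had smaller differences between ProNeut and PreNeut. Of 82, 73 were tested; none was called in either direction, where 3.62% of all genes were called higher and 3.93% lower. By the adjusted p alone, 3 were higher and 10 lower in ProNeut, where 16.9% and 19.4% of all genes were. At an unadjusted p under 0.05, 4 were higher and 15 lower, where 1853 and 2099 of all 8906 genes tested were. The median of the 73 was -0.09 log2 units. None of the 13 nuclear genes passed when all 15 libraries shared the spread. Of all calls, 47.9% were higher in ProNeut, and 37.4% to 53.6% under 3 other scalings, none of which moved the median of all genes by more than 0.09. By complex the medians were -0.03 for complex I, -0.16 for complex II, -0.05 for complex III, -0.10 for complex IV and -0.16 for complex V.

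**Figure D3:**
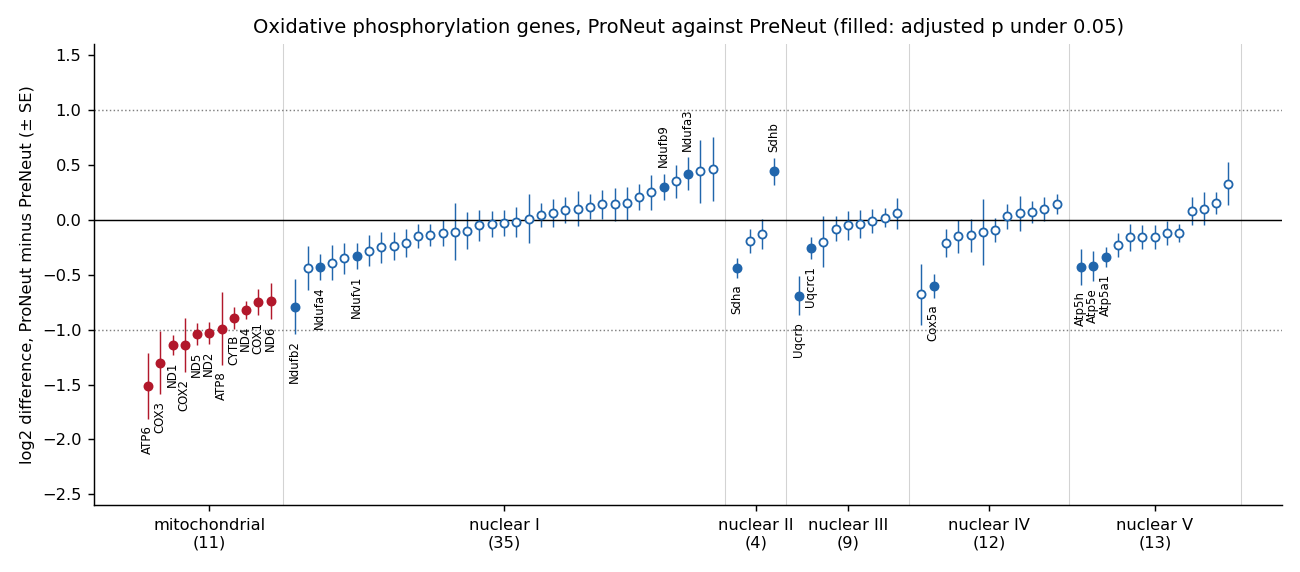
Difference in log2 CPM between ProNeut and PreNeut for each gene tested (vertical axis, ± SE), ordered by size within mitochondrial genes (red) and within the nuclear genes of each complex (blue); filled points pass an adjusted p of 0.05 and are named, and dotted lines mark 1 log2 unit. The 11 mitochondrial genes lie between -1.51 and -0.74, while no nuclear gene reaches 1 log2 unit.

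In complex I, 35 nuclear genes were tested, of which 2 were higher and 3 lower. Ndufb2, a small accessory membrane subunit, had the largest decrease of the nuclear genes that passed the test, with a log2 CPM of 1.76, 1.53 and 2.30 in ProNeut against 2.74, 2.41 and 2.79 in PreNeut (difference -0.79 ± 0.25). Ndufv1, which carries the NADH-binding flavin site, had 4.36, 4.21 and 4.24 in ProNeut against 4.53, 4.58 and 4.71 in PreNeut (difference -0.33 ± 0.12, adjusted p = 0.03). Ndufa4, named as a complex I gene although its product is now placed in complex IV, differed by -0.43 ± 0.12. The accessory subunit genes Ndufa3 and Ndufb9 were higher by 0.42 ± 0.15 and 0.30 ± 0.12. Of these 5, only Ndufa4 passed with each library left out in turn. Ndufb2 did not pass without replicate 1 of PreNeut or replicate 1 or 2 of ProNeut (-0.74 to -0.62), nor Ndufv1 without replicate 3 of PreNeut or replicate 2 or 3 of ProNeut (-0.32 to -0.28). Ndufa3 did not pass without replicate 2 or 3 of PreNeut or replicate 2 of ProNeut (0.30 to 0.33), nor Ndufb9 without any library but PreNeut replicate 1 (0.22 to 0.34). Other core subunits of the electron path that did not pass the test included Ndufs1, Ndufs7 and Ndufs8: Ndufs1 differed by 0.09 ± 0.12, Ndufs7 by 0.35 ± 0.15 and Ndufs8 by -0.24 ± 0.13.

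The succinate dehydrogenase genes moved in opposite directions. Sdha, the flavoprotein that oxidises succinate, had a log2 CPM of 5.79, 5.88 and 5.80 in ProNeut against 6.23, 6.25 and 6.32 in PreNeut, and fell by 0.44 ± 0.09 (SE; adjusted p = 0.00031). Its partner in the catalytic head, the iron-sulfur subunit Sdhb, had 4.96, 5.04 and 5.16 in ProNeut against 4.8, 4.43 and 4.6 in PreNeut, and rose by 0.44 ± 0.12 (adjusted p = 0.0042). Neither pair of groups overlapped. Per kilobase of transcript, Sdhb stood at 58.4 ± 3.51 in ProNeut and 45.8 ± 4.45 in PreNeut, and Sdha at 39.3 ± 3.0 in ProNeut and 56.6 ± 2.38 in PreNeut. Sdhb was thus the higher of the pair in ProNeut and Sdha in PreNeut. The membrane anchor genes Sdhc and Sdhd did not pass the test.

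In complex III, Uqcrb, a small subunit at the quinone site, had a log2 CPM of 3.26, 2.70 and 3.27 in ProNeut against 3.78, 3.56 and 3.96 in PreNeut, a difference of -0.69 ± 0.18; 43.2% of its windows are shared with annotated copies. Uqcrc1, a core subunit, differed by -0.26 ± 0.10 (adjusted p = 0.039) and did not pass without replicate 1 or 3 of PreNeut or replicate 1 or 2 of ProNeut (-0.26 to -0.17). The subunits that carry the redox centres were close in both populations: the Rieske iron-sulfur protein Uqcrfs1 differed by -0.04 ± 0.13 and cytochrome c1, Cyc1, by -0.01 ± 0.11. In complex IV only Cox5a, 1 of 12 nuclear genes tested, passed. Cox5a had 4.92, 4.88 and 5.12 in ProNeut against 5.56, 5.38 and 5.77 in PreNeut (difference -0.60 ± 0.11, adjusted p = 0.00015). Other nuclear genes of the complex differed without passing, by 0.14 ± 0.09 (Cox4i1), 0.06 ± 0.16 (Cox5b) and 0.07 ± 0.10 (Cox6a1).

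In complex V, 3 of 13 genes tested passed, all lower in ProNeut. Atp5a1, the alpha subunit of the catalytic head, had a log2 CPM of 7.22, 7.25 and 7.35 in ProNeut against 7.68, 7.45 and 7.71 in PreNeut (difference -0.34 ± 0.09, adjusted p = 0.0028). Its catalytic partner Atp5b (beta) had 7.83, 7.85 and 7.92 in ProNeut against 8.01, 7.87 and 8.08 in PreNeut, a difference of -0.12 ± 0.08 that did not pass. Atp5h and Atp5e, subunits of the stalks, differed by -0.43 ± 0.16 and -0.42 ± 0.14, and 50.5% of the Atp5h windows are shared with copies. Without PreNeut replicate 3 the differences were -0.25 (Atp5h) and -0.28 (Atp5e), and neither passed; nor did either without replicate 1 or 2 of ProNeut, nor Atp5e without PreNeut replicate 1. Atp5c1 and Atp5o, of the central and peripheral stalk, each differed by -0.16 and did not pass.

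Per kilobase, the nuclear genes of each complex spanned a wide range in the second set, and all sat below ND1, ND2, ND4, ND5, CYTB and COX1 in both populations. ND6, at 38.7 in ProNeut and 68.2 in PreNeut, and ATP8 lay within the range of the nuclear genes. The median nuclear gene stood at 49.2 ± 1.26 in ProNeut and 53.5 ± 3.66 in PreNeut. Complex V had the highest median, 84.3 ± 7.36 in ProNeut and 97.3 ± 7.62 in PreNeut, and complex III had 34.8 ± 2.61 in ProNeut and 46.1 ± 1.24 in PreNeut. The highest nuclear gene in both was Atp5b, at 244 in ProNeut and 283 in PreNeut. Close to each other below it were the complex IV genes Cox4i1, the ubiquitous form of subunit 4, at 207 in ProNeut and 200 in PreNeut, and Cox6a1, at 199 in ProNeut and 201 in PreNeut. Ndufb7 led complex I with 194 in ProNeut and 191 in PreNeut, and Uqcrh, the hinge protein, led complex III with 96.4 in ProNeut and 108 in PreNeut. In complex II, Sdhd stood at 48.7 in ProNeut and 58.9 in PreNeut, and Sdhc was lowest at 14 in ProNeut and 16.4 in PreNeut.

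The alternative forms of complex IV subunits, which in other tissues replace the common ones, were barely detected in these libraries. Cox4i2, the lung form, had 0 reads over the ProNeut libraries and 2 over the PreNeut libraries. Cox7a1, a heart and skeletal muscle form, had 1 read in ProNeut and 9 in PreNeut, and Cox6a2, another heart and skeletal muscle form, 6 in ProNeut and 0 in PreNeut. Their common counterparts were far above this: beside Cox4i1 and Cox6a1, Cox7a2 had 133 per kilobase in ProNeut and 131 in PreNeut. Cox6b2, a testis form, was the exception at 10.1 in ProNeut and 17.5 in PreNeut, below Cox6b1 at 145 in ProNeut and 164 in PreNeut. Of the 3 genes for the ATP synthase c subunit, which make the same mature protein, Atp5g3 stood at 104 in ProNeut and 129 in PreNeut, and Atp5g1 at 2.62 in ProNeut and 1.73 in PreNeut. Atp5g2 stood at 1.19 in ProNeut and 1.64 in PreNeut; since 66.0% of the windows of Atp5g1 and 87.4% of those of Atp5g2 are shared with annotated copies, these 2 levels are uncertain.

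**Figure D4:**
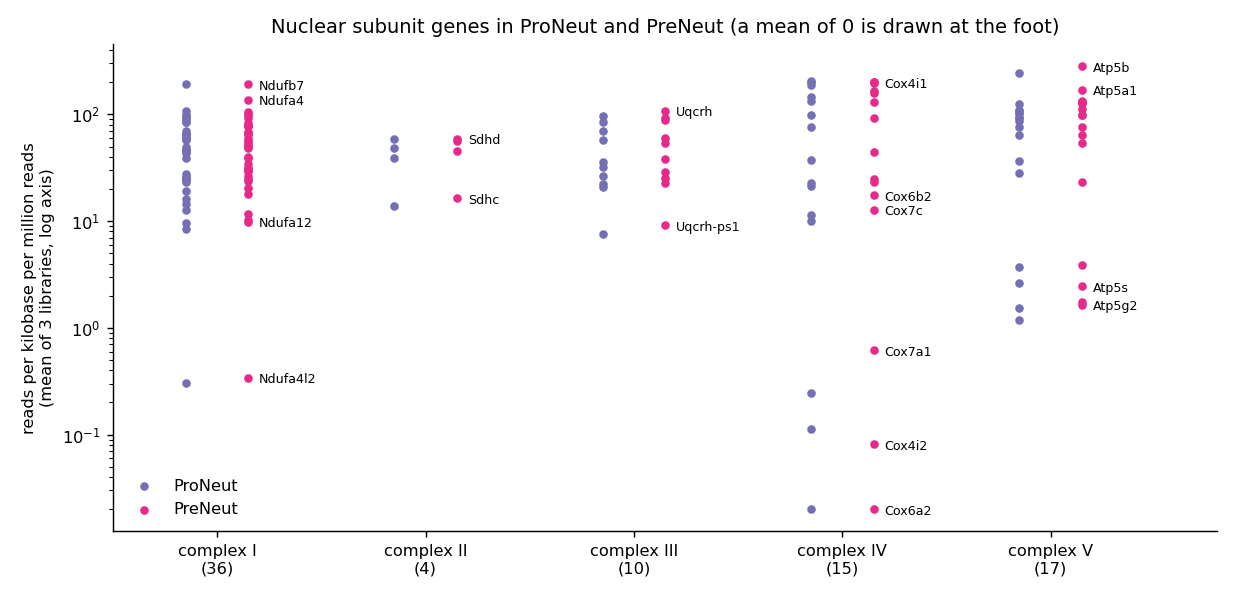
Level of each nuclear gene (vertical axis, RPKM from recovered reads, mean of 3 libraries, log scale) by complex, ProNeut left of PreNeut; a mean of 0 is drawn at the foot of the axis. Most genes lie between about 10 and 283, and the alternative forms Ndufa4l2, Cox7a1, Cox4i2 and Cox6a2 lie below 1.

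Genes that make and serve the complexes were taken from lists of assembly factors, carriers, mitochondrial DNA expression, regulators and the citric acid cycle. Of 35 assembly factors tested in ProNeut against PreNeut, none was called, where 3.62% of all genes were called higher and 3.93% lower. Cox10, the enzyme that makes heme for complex IV, was lower at -0.78 ± 0.22. Pet100, a complex IV assembly factor, was higher by 0.45 ± 0.16, and these were the only assembly genes to pass the adjusted p. Cox10 did not pass without ProNeut replicate 2 (-0.58), nor Pet100 without PreNeut replicate 2 or ProNeut replicate 2 or 3 (0.35 to 0.41). The counts of the other lists are by the adjusted p. Like Cox10 and Pet100 among the 35, they stand beside 19.4% of all genes lower and 16.9% higher. Among 14 genes of mitochondrial DNA expression, 4 were lower and none higher. Tfam, which packages mitochondrial DNA and starts its transcription, differed by -0.75 ± 0.17 (adjusted p = 0.0013), and Fastkd2, which acts on mitochondrial RNA, was called at -1.29 ± 0.43, though not without PreNeut replicate 2 (-1.24). Among 9 carriers and partners, 5 were lower and 1 higher: Slc25a5, the ADP/ATP carrier, differed by -0.72 ± 0.12 and Ucp2, an inner membrane carrier, by 0.35 ± 0.08. Of 16 citric acid cycle genes 5 were lower and none higher, with Idh3a, a subunit of isocitrate dehydrogenase, called at -1.38 ± 0.16. Of 7 regulators 3 were lower: Pprc1, a coactivator of the PGC-1 family, at -1.75 ± 0.31, Myc at -1.23 ± 0.28, and Gabpa, an ETS factor known to act on many of these promoters, at -0.48 ± 0.09. None of the supporting genes named here passed when all 15 libraries shared the spread. Gabpa overlaps the subunit gene Atp5j on the opposite strand, so that reads of this pair may be split between them.

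Marker genes of other cells and stages moved with the same contrast, and their part in it was not tested. Markers of early granules and granulocyte-monocyte progenitors (Mpo, Elane, Prtn3 and Csf1r) summed to 24.0 to 96.9 CPM in ProNeut and 881 to 1060 CPM in PreNeut, with 3 of 4 called lower. Csf1r was not called and had the higher mean log2 CPM in ProNeut, 1.85 against 1.35. The progenitor markers Kit, Cd34, Gata2 and Flt3 summed to 32.8 to 36.1 CPM in ProNeut and 37.2 to 49.9 CPM in PreNeut, with none called. Kit and Gata2 had lower means in ProNeut, and Cd34 and Flt3 higher means. The 3 basophil and mast cell markers summed to 1.54 to 1.67 CPM in ProNeut and 25.2 to 28.0 CPM in PreNeut, all called lower. Of the T and NK cell markers, Nkg7 had a log2 CPM of 1.24 ± 0.68 in ProNeut and 4.57 ± 0.25 in PreNeut (SD, n = 3 each) and was called lower. The T cell genes had higher means in ProNeut but were too low to be tested: Cd3d had 0.61 ± 0.34 in ProNeut and -2.87 ± 1.83 in PreNeut, and Cd3e -1.85 ± 1.98 in ProNeut and -4.81 ± 1.56 in PreNeut. The 6 erythroid markers went the other way, at 40.3 to 45.7 CPM in ProNeut and 1.85 to 5.80 CPM in PreNeut. The 10 late neutrophil markers summed to 93000 to 116000 CPM in ProNeut and 72700 to 93800 CPM in PreNeut, with 5 called higher. No marker of these lists was at 0 in all libraries of either population.

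Promoter sequences of 250 bases before to 50 bases after the start (RefSeq, GRCm38.p6) were at hand for 65 of the 82 nuclear genes. The palindromic core of NRF1, a factor known to act on many genes of the respiratory chain, was present on either strand in 5 of them, 7.69%, against 2.20% of 10843 promoters of genes in the table and 1.07% of all 27025. The ETS core CCGGAAG, bound by GABPA, was in 16 (24.6%, against 19.3% of the table's genes), and the YY1 core in 5 (7.69%, against 2.27%). In all, 23 of the 65 held at least 1 of the 3, and 3 held more than 1. Of the 23, 16 held the ETS core, whose share was near that of the table's genes. The share of all promoters with at least 1 of the 3 was not counted, so the 23 cannot be set against it. The NRF1 core lies before the start in 4 genes, shown here with the core searched in capitals at chr15:102671050-102671119 (minus strand), chr5:108434410-108434479 (minus), chr5:115349081-115349150 (minus) and chr17:56717672-56717741 (plus).
Atp5g2: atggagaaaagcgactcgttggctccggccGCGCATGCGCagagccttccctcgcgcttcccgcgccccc
Atp5k: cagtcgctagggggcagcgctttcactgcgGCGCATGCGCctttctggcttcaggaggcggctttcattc
Cox6a1: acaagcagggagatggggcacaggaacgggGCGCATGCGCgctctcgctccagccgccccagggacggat
Ndufa11: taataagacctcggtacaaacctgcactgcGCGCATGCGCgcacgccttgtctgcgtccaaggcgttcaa
These 4 genes differ widely in level per kilobase, from Atp5g2 at 1.19 in ProNeut and 1.64 in PreNeut to Cox6a1 at 199 in ProNeut and 201 in PreNeut, and Atp5k, Cox6a1 and Ndufa11 did not pass the test between ProNeut and PreNeut, while Atp5g2 was too low to be tested. The fifth gene, Uqcrc1, holds the core after its start, stood at 70.1 in ProNeut and 88.8 in PreNeut, and passed the test (difference -0.26 ± 0.10). A match in these letters is a description of the sequence and not a site of binding.

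In the first set, Neutrophil libraries were set against CD115plusGMP and CMP. The large share of ND6 and of opposite-strand partners in this set bears on each of its values: with the strand setting not known, a value may hold mainly reads of the opposite strand, and lower or higher is said of a locus and not of the gene's own transcript. Of the reads in these libraries, 55.6% to 69.5% lay on identifiers without a symbol, against 0.102% to 0.146% in the second set. The mitochondrial genes held 0.0721%, 0.0756% and 0.0725% of reads in Neutrophil libraries, against 1.46%, 1.46% and 1.64% in CD115plusGMP libraries and 1.19%, 0.898% and 1.37% in CMP libraries. Without ND6, the shares were 0.0135% ± 0.00803 in Neutrophil, 0.124% ± 0.0229 in CD115plusGMP and 0.188% ± 0.0391 in CMP (SD, n = 3 each). No Neutrophil library overlapped the others in either measure. Nuclear genes held 0.0543%, 0.0520% and 0.0735% in Neutrophil libraries, against 0.0826%, 0.0513% and 0.0638% in CD115plusGMP libraries and 0.116%, 0.136% and 0.136% in CMP libraries. The nuclear share was thus lower than in CMP in every Neutrophil library, with a ratio of means of 0.463, and overlapped that of CD115plusGMP. Atp5f1 alone held 279, 379 and 377 of the 482, 667 and 1030 nuclear reads in Neutrophil libraries. In CD115plusGMP it held 221, 162 and 138 of 1061, 478 and 517, and in CMP 185, 228 and 262 of 1110, 1593 and 1967. The nuclear shares of Neutrophil thus rest in large part on this gene, and shares without it were not tested. The exact permutation p was 0.1, the smallest possible, for each mitochondrial share and for the nuclear share against CMP, and 0.7 for the nuclear share against CD115plusGMP. With reads on genes that have a symbol as the denominator, the nuclear share was 0.169% to 0.201% in Neutrophil, 0.134% to 0.208% in CD115plusGMP and 0.263% to 0.306% in CMP, with a ratio of 0.617 to CMP. The mitochondrial share was then 0.199% to 0.247% in Neutrophil, 3.66% to 4.23% in CD115plusGMP and 2.02% to 3.08% in CMP.

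Against CMP, 8 of 11 mitochondrial genes tested were called lower in Neutrophil and none higher, where 19.4% of all 10812 genes tested were called lower and 28.5% higher. The median of the 11 was -2.63 log2 units, beside 0.19 over all genes. ND4 had 1, 2 and 19 reads in Neutrophil libraries, against 204, 157 and 326 in CMP libraries, and a difference of -4.34 ± 0.56 (adjusted p = 2e-05). CYTB had a log2 CPM of 7.0, 7.24 and 7.85 in Neutrophil against 9.40, 9.45 and 9.56 in CMP, a difference of -2.10 ± 0.27. COX1 had 6.90, 6.5 and 7.21 in Neutrophil against 8.40, 8.68 and 8.80 in CMP, a difference of -1.76 ± 0.29. The complex I genes ND2, ND1 and ND5 differed by -4.83 ± 0.63, -3.88 ± 0.65 and -3.48 ± 0.47. ND6, with 541, 882 and 703 reads in Neutrophil libraries against 9776, 8615 and 16369 in CMP libraries, differed by -2.63 ± 0.27. ND3 had 0 reads in Neutrophil and 27 in CMP, at least 3.62-fold lower against a floor of 3 reads over the group, and its call was lost without CMP replicate 3 (difference -2.19). ND3, counted among the 8, passed the filter only through the other groups, so its Neutrophil values follow library size alone. With 98% of its windows shared, its level is also uncertain. COX2, COX3 and ATP6 had 0 or 1 read in Neutrophil and 6 to 8 in CMP and did not pass.

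Against CD115plusGMP, 8 of the 11 mitochondrial genes were again lower in Neutrophil, where 15.3% of all genes were called lower; the 2 comparisons share the Neutrophil libraries. ND4 differed by -4.50 ± 0.56, ND2 by -3.99 ± 0.63, ND6 by -3.74 ± 0.27, ND1 by -3.56 ± 0.65 and ND5 by -3.14 ± 0.47. CYTB and COX1 differed by -2.31 ± 0.27 and -1.82 ± 0.29. ND3 had 0 reads in Neutrophil and 13 in CD115plusGMP, at least 3.02-fold lower, and was not called without CD115plusGMP replicate 2 (difference -2.36). The limits given for ND3 against CMP hold here too, and it is again counted among the 8. ND1, ND2, ND4 and ND5 thus showed larger point differences than CYTB and COX1 in both comparisons; the gap between them was not tested. The median was -2.59, beside 0.16 over all genes.

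**Figure D5:**
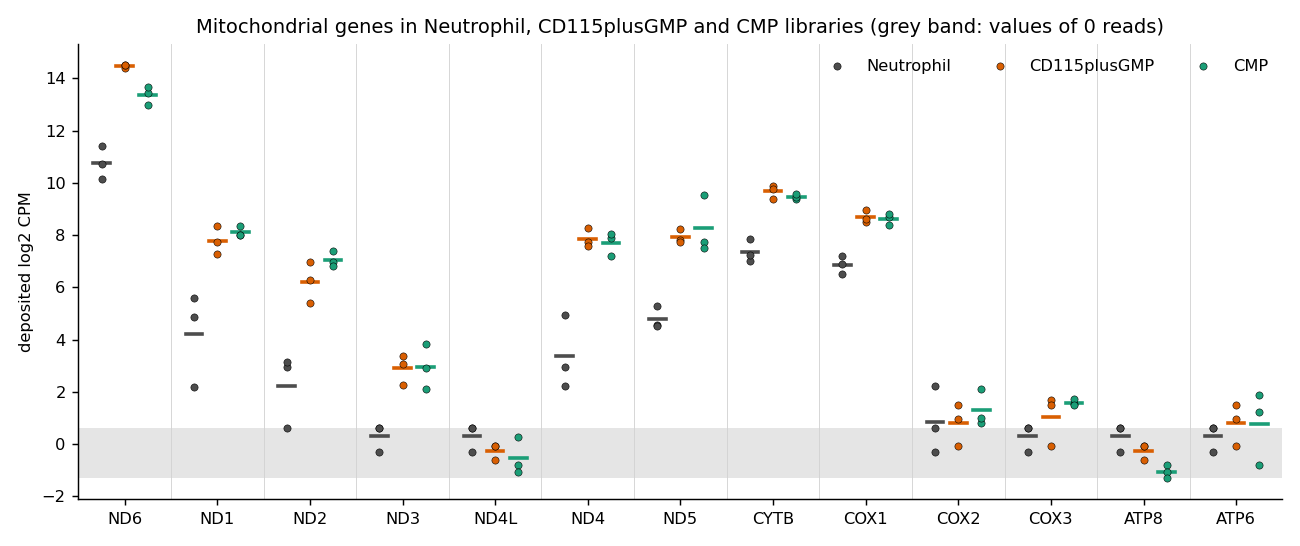
Deposited log2 CPM of the 13 mitochondrial genes (horizontal axis) in the 3 libraries of Neutrophil, CD115plusGMP and CMP; bars are means, and the grey band spans the values that 0 reads give in these libraries. Neutrophil points lie below both other groups for ND6, ND1, ND2, ND4, ND5, CYTB and COX1, while COX2, COX3, ATP8, ATP6 and ND4L lie in or near the band in every group.

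The nuclear genes were sparse in these libraries: in Neutrophil, 21 of 82 had 0 reads in all 3 libraries, against 6 in CD115plusGMP and 2 in CMP. All genes were sparse here too. Per Neutrophil library 28 to 51 of the 82 were at 0 reads, where 7227 to 8266 of all 14801 genes were. The numbers were 11 to 29 in CD115plusGMP, beside 4176 to 6124 of all genes, and 4 to 10 in CMP, beside 3672 to 4651. Genes at 0 reads in both groups take a difference of 1.37 log2 units between Neutrophil and CMP from the deposited scaling alone. Of 71 tested against CMP, 22 were called lower and 3 higher, where 19.4% and 28.5% of all genes were. Genes with 0 reads in each Neutrophil library entered this test only through libraries of the other groups. Beyond those named below, how many of the 22 or of all calls are such genes was not counted. The 22 is therefore not a count of decreases measured in both groups. Of the 22, 10 belong to complex I, 5 to complex III, 2 to complex IV and 5 to complex V, and the median of the 71 was -1.34. The count ran from 11 to 23 when libraries were left out in turn: 14, 11 and 12 without CMP replicates 1, 2 and 3, and 13 without Neutrophil replicate 1. Of the 22, 7 kept the call with every library left out in turn: Ndufa4, Ndufa6 and Ndufa12 of complex I, Cox5a of complex IV, and Atp5b, Atp5c1 and Atp5o of complex V. The other 15, among them all 5 of complex III, lost it without at least 1 library. Among those that kept it, Ndufa12, Cox5a, Atp5c1 and Atp5o had 0 reads in each Neutrophil library. They passed the filter on low values only through libraries of the other groups, and their Neutrophil values follow library size alone. Leaving out a Neutrophil library therefore cannot test their calls. Of the rest, Ndufa6 had 0, 1 and 1 reads in Neutrophil libraries and Ndufa4 had 0, 0 and 7, also few. Atp5b had 17, 17 and 49. Complex II gave no call. The scale matters here: of all calls 59.5% were higher in Neutrophil, but 29.9% to 48.7% under 3 other scalings, which moved the median of all genes by -0.47 to -1.36. With plain library totals the nuclear median was -2.70 and the mitochondrial median -3.99, beside -1.18 over all genes. On that scale 50 nuclear genes were called lower, while 29.9% of the calls over all genes were higher. The share of all genes called lower on that scale is not given here, so the 50 cannot be set against it.

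Atp5c1, the central stalk gene of the ATP synthase, had 0 reads in each Neutrophil library, against 10, 26 and 25 in CMP libraries, at least 8.19-fold lower. Ndufa12, an accessory complex I gene with 26.2% of windows shared with copies, had 0 reads in each Neutrophil library, against 8, 19 and 23 in CMP, at least 6.71-fold lower. Atp5o had 0 reads in each Neutrophil library, against 9, 20 and 16 in CMP, at least 6.04-fold lower; these bounds cover counting error only and rest on the deposited library sizes. Among genes with reads in both, Atp5b had a log2 CPM of 5.76, 5.74 and 6.31 in Neutrophil against 7.04, 7.54 and 7.55 in CMP, a difference of -1.44 ± 0.37 (adjusted p = 0.0052). Atp5a1 had 5.02, 5.01 and 5.83 in Neutrophil against 6.0, 6.44 and 6.63 in CMP, a difference of -1.07 ± 0.42 (adjusted p = 0.047), which was not called without any library but Neutrophil replicate 3 (-1.25 to -0.93). Ndufa9, a complex I gene with 4 reads in Neutrophil and 77 in CMP, was not called without CMP replicate 3 or Neutrophil replicate 3.

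The 3 genes called higher in Neutrophil than in CMP were Ndufv3, Atp5f1 and Ndufs1. Ndufv3, a small subunit beside the flavin site of complex I, had a log2 CPM of 6.86, 8.31 and 6.34 in Neutrophil against 3.60, 3.78 and 3.64 in CMP, a difference of 3.49 ± 0.54. Atp5f1, a peripheral stalk gene, had 9.76, 10.18 and 9.24 in Neutrophil against 7.74, 7.76 and 7.72 in CMP, a difference of 1.99 ± 0.27. It shares 337 exon bases with Wdr77 on the opposite strand, and 23.2% of its windows with annotated copies. Wdr77 had 18 reads in Neutrophil and 15 in CMP, where Atp5f1 had 1035 in Neutrophil and 675 in CMP. Ndufs1, the largest core subunit of complex I, differed by 1.48 ± 0.45 and shares 489 exon bases with the opposite-strand gene Ino80dos, which had 643 reads in Neutrophil and 2849 in CMP, where Ndufs1 had 87 in Neutrophil and 80 in CMP. With plain library totals Ndufv3 was the only nuclear gene still called higher, and Ndufs1 also lost its call without CMP replicate 2 (difference 1.35).

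Against CD115plusGMP, 6 nuclear genes were called lower and 3 higher in Neutrophil, where 15.3% and 23.6% of all genes were, with a median of -0.65. Of all calls 60.8% were higher, and 36.9% to 52.6% under 3 other scalings, which moved the median of all genes by -0.31 to -0.81. Without Neutrophil replicate 3 the number called lower was 10. Ndufa12, Atp5o and Atp5c1 again had 0 reads in Neutrophil, against 20, 18 and 18 in CD115plusGMP, at least 4.65-fold, 4.19-fold and 4.19-fold lower. Here too these genes passed the filter only through the other groups, and their Neutrophil values follow library size alone. Leaving out a Neutrophil library cannot test their calls. Atp5c1 was not called without CD115plusGMP replicate 1 or 3 (-2.14 to -2.45). Ndufa6 had 2 reads in Neutrophil and 28 in CD115plusGMP, a ratio of 0.102 (95% counting interval 0.0118 to 0.406). Ndufa4 had 7 reads in Neutrophil, all in replicate 3, and 37 in CD115plusGMP. Ndufv3 and Atp5f1 were higher by 3.77 ± 0.54 and 1.57 ± 0.27. Uqcrh was higher by 1.45 ± 0.47 (adjusted p = 0.025), with a log2 CPM of 5.49, 4.70 and 5.75 in Neutrophil against 4.59, 3.61 and 3.39 in CD115plusGMP, and lost its call without replicate 1 or 3 of Neutrophil or replicate 2 or 3 of CD115plusGMP (differences 1.21 to 1.36).

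CD115plusGMP against CMP gave few calls. The nuclear share averaged 0.0659% ± 0.0158 in CD115plusGMP and 0.129% ± 0.0113 in CMP, without overlap (exact permutation p = 0.1, the smallest possible). Of 71 nuclear genes tested 59 had a negative difference, where 5121 of all 10812 genes did, with a median of -0.55 beside 0.06 over all genes. At an unadjusted p under 0.05, 8 of the 71 were lower and none higher, where 955 and 1704 of all genes were. Only 1 was called lower and none higher, where 3.76% and 8.62% of all genes were. That gene was Uqcrh, at 4.59, 3.61 and 3.39 in CD115plusGMP against 5.68, 5.52 and 5.67 in CMP, a difference of -1.76 ± 0.47 (adjusted p = 0.023), and it was not called without any of 5 of the 6 libraries, all but CD115plusGMP replicate 1. Of 11 mitochondrial genes only ND6 was called, higher by 1.11 ± 0.27 (adjusted p = 0.012), with a log2 CPM of 14.41, 14.52 and 14.53 in CD115plusGMP against 13.46, 12.99 and 13.68 in CMP; the call was lost without CMP replicate 2 (0.91) or CD115plusGMP replicate 2 or 3. The mitochondrial share was 1.32 times that of CMP with ND6 and 0.656 times without it, so that its direction rests on ND6. Under 3 other scalings the all-gene median shifted by -0.16 to -0.56, and ND6 had a difference of 0.18 to 0.95, with no call. Of all calls 69.6% were higher in CD115plusGMP, and 42.1% to 63.6% under those scalings.

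Among the supporting lists in Neutrophil, of 17 citric acid cycle genes, 5 were called lower and 1 higher against CMP, and of 9 carriers and partners 4 were lower and none higher, where 19.4% of all genes were called lower and 28.5% higher. Tfam had 0 reads in Neutrophil, against 9 in CD115plusGMP and 22 in CMP, and Myc had 0 in Neutrophil, against 20 in CD115plusGMP and 58 in CMP. Of 19 genes of mitochondrial DNA expression, 5 were called lower and 4 higher against CMP, near the share of all genes, among them Polg, the mitochondrial DNA polymerase, at -4.86 ± 0.50, and its accessory subunit Polg2 at 6.14 ± 0.43. Markers of other cells moved too, and their part was not tested. Erythroid markers summed to 0 CPM in Neutrophil, 1.90 to 3.76 CPM in CD115plusGMP and 305 to 413 CPM in CMP, and B lymphoid markers to 43.3 to 88.8 CPM in Neutrophil, 1.88 to 3.90 CPM in CD115plusGMP and 0 to 6.44 CPM in CMP. In Neutrophil the B lymphoid sum was nearly all Cd79a, with 72 reads, beside 1 of Cd79b. The 10 late neutrophil markers, all called higher in Neutrophil, summed to 11000 to 37700 CPM in Neutrophil, 26.3 to 78.0 CPM in CD115plusGMP and 34.1 to 38.6 CPM in CMP.

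Within each library, the percentile of the median nuclear gene among all genes does not use the library size. In the second set it was 71.9 to 75.1 in ProNeut and 71.8 to 75.4 in PreNeut. With tied genes given their middle rank, it was 26.8 to 54.5 in Neutrophil, 57.4 to 66.1 in CD115plusGMP and 69.8 to 75.0 in CMP. In 2 of the 3 Neutrophil libraries the median nuclear gene had 0 reads, so that 26.8 is the middle rank of all genes at 0. When only genes strictly below were counted, the percentiles were 0, 0 and 53.4 in Neutrophil, against 66.3, 53.9 and 53.0 in CD115plusGMP and 68.5, 74.3 and 73.5 in CMP. Neutrophil thus lay below CMP by both counts, and overlapped CD115plusGMP by the second. For the median mitochondrial gene it was 57.4 to 63.4 in ProNeut and 65.9 to 71.3 in PreNeut. In every library of the second set this median gene was ND6, so these percentiles are those of ND6 alone. Below it lay ATP8 and the genes of uncertain level, COX2, COX3, ATP6, ND3 and ND4L. The percentile of the median mitochondrial gene was 26.8 to 58.8 in Neutrophil, 89.3 to 93.8 in CD115plusGMP and 94.5 to 95.5 in CMP. The ranges of the nuclear genes overlapped between ProNeut and PreNeut.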

How the data were processed

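The deposited table holds log2 CPM for 14801 genes in 15 libraries, made by the authors from mouse bone marrow RNA. The labels name the Universal Plus mRNA-Seq kit (NuGEN). The submitters' processing notes name FastQC 0.11.7, featureCounts 1.22.2, edgeR 1.30.5 and GRCm38/mm10; no source used here gives the aligner, annotation, strand setting or treatment of reads with several matches. Reads recovered from the deposited log2 values were whole within 0.001 reads after removing 0.5 reads that the authors had added.

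Each library set was fitted with limma 3.58.1 (R 4.3.3, trend in the spread) on the deposited values, for genes above a log2 CPM of 1 in at least 3 libraries, with Benjamini-Hochberg adjustment over all genes tested. A gene was called at an adjusted p under 0.05 and a difference of at least 1 log2 unit. The fits were tested on simulated data with 200 changed genes. Shares of reads were compared by two-sided exact permutation tests (scipy 1.17.1, Python 3.11.15). Floors were 3 reads over a group and intervals cover 95% of counting error only. Copies were found as exact matches of 50-base windows among GENCODE M21 transcripts, to which all 95 genes matched. Symbols are those of the table.

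Named genes were the mitochondrial genes, up to 8 called genes with the largest increase and decrease without overlap, core subunits, alternative forms, the highest and lowest gene of each complex, and up to 3 called genes per supporting list. Nuclear genes that passed the adjusted p alone, and others in the supporting lists, were named after their values were seen. The members and lists were chosen with earlier results of these data known. Alternatives covered scaling, filters, pseudocount, weights, the spread, the threshold, replicate numbers and each library left out. Values of 1 member gene are not reported here.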

Additional observations from a re-analysis of the deposited data

How the results depend on the processing

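For single genes, 1239 results under an alternative kept their side of the threshold, 186 lost the call and none changed sign. ProNeut against PreNeut: called mitochondrial genes numbered 6, but 3 under the stricter filter (median -0.887), 0 with all 15 libraries sharing the spread, 11 with no minimum difference and 3 to 7 with each library left out. Nuclear genes called lower numbered 0 to 1 with each library left out, and without a minimum difference 3 were higher and 10 lower. CD115plusGMP against CMP: nuclear genes called lower numbered 3 under quantile normalization and plain totals, 0 without the trend, 2 with all 15 libraries and 0 to 1 with each library left out. Called mitochondrial genes numbered 0 under those scalings, median centring and no trend, and 0 to 1 with each library left out. The nuclear median was -1.108 and the mitochondrial median -0.594 under plain totals, and the nuclear median -0.984 to -0.431 with each library left out. Neutrophil against CMP: 6 nuclear genes were called higher with no filter and 1 under plain totals. Those called lower numbered 35 under quantile normalization, 50 under plain totals and 11 to 23 with each library left out. Under those 2 scalings 41.3% and 29.9% of the calls over all genes were higher in Neutrophil, against 59.5% on the deposited scale. Medians under plain totals were -2.700 (nuclear) and -3.994 (mitochondrial). Neutrophil against CD115plusGMP: 14 nuclear genes were called lower under quantile normalization, 15 under plain totals, 11 with all 15 libraries and 4 to 10 with each library left out, and 1 higher under plain totals. Here 42.1% (quantile normalization) and 36.9% (plain totals) of the calls over all genes were higher, against 60.8% on the deposited scale. The share of all genes called under each alternative is not given here. Mitochondrial share ratios without ND6 were 0.656 (CD115plusGMP to CMP) and 0.109 (Neutrophil to CD115plusGMP). With reads on genes with a symbol as denominator, Neutrophil ratios were 0.617 (nuclear, to CMP), 0.086 (mitochondrial, to CMP) and 0.0574 (mitochondrial, to CD115plusGMP). The causes were not tested.

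Replicate numbers shared between groups did not pair the libraries: deviations of same-numbered libraries correlated at -0.031 to 0.077. With the replicate number as a block, called genes (nuclear higher, nuclear lower, mitochondrial) numbered 0, 0 and 6 for ProNeut against PreNeut, 0, 1 and 1 for CD115plusGMP against CMP, 3, 20 and 8 for Neutrophil against CMP, and 3, 5 and 8 for Neutrophil against CD115plusGMP. Depth limits the first set, where most nuclear genes rest on few reads.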
